A study of Mus musculus with 12 samples.

Results

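The PDGF ligand genes Pdgfa, Pdgfb, Pdgfc and Pdgfd, the receptor genes Pdgfra and Pdgfrb and the receptor-like gene Pdgfrl were measured in primary mouse skin fibroblasts by RNA sequencing. They are 7 of the 21556 genes in the count table, taken by name as the family of platelet-derived growth factors. The members were chosen by family name, and the family was selected on measured values, since it was proposed with the WT response to TGF-β2 of these libraries already known. The values that chose it are the WT differences between stimulated and control libraries, in which Pdgfb is among the largest rises. That response is therefore given as a description without a test. The response in Nox4 KO cells was tested over all genes. The genotype comparisons were also run over all genes, but they use the same WT libraries. For the members their differences are therefore given as values.

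Platelet-derived growth factors are dimers secreted by platelets, macrophages, endothelium and mesenchymal cells, and they drive migration and division of fibroblasts, pericytes and smooth muscle cells during development and wound repair. The A, B, C and D chains signal through a pair of receptor tyrosine kinases, PDGFRα and PDGFRβ. The C and D chains are secreted in a latent form and need cleavage of their CUB domain before they bind. Pdgfra marks dermal fibroblasts and Pdgfrb marks fibroblasts and mural cells of vessels, whereas Pdgfrl encodes a protein that resembles the outer part of the receptors and has no kinase domain.

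Fibroblasts were grown from abdominal skin of WT mice (C57BL/6) and of Nox4 KO mice (B6.129-Nox4tm1Kkr/J). All cells were starved for 24 h. They then spent 24 h without TGF-β2 (control) or with it, at 10 ng/ml, and each of the 4 groups, WT control, WT TGF-β2, Nox4 KO control and Nox4 KO TGF-β2, has 3 libraries. No age is given for the mice that gave the cultures, and nothing states how many animals stood behind a library, so p-values measure only the spread between these libraries. Because the 2 strains were bred in separate litters, a difference between genotypes and a difference between litters cannot be told apart.

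The libraries held 35118344 to 43796260 counted reads, and levels are given as RPKM, the counted reads of a gene scaled to the length of its merged exons and to the total of the library. Nox4 itself had 203 to 398 reads in WT control, 1314 to 2471 in WT TGF-β2, 102 to 207 in Nox4 KO control and 782 to 1175 in Nox4 KO TGF-β2, and a count over the whole gene does not show whether these reads lie in the targeted part. All 8 fibroblast markers were above 1 RPKM in at least 1 library, and Smad7, Skil and Ccn2, markers of the TGF-β response, rose in both genotypes. Of the fibroblast markers Col3a1 fell in both genotypes and Dcn fell in Nox4 KO, and 0 of 3 myofibroblast markers were called by edgeR in either. The markers of keratinocytes (4 genes), Schwann cells and melanocytes (5), adipocytes (3) and skeletal muscle (3) were all under 1 RPKM in every library. Some libraries stood apart. In WT TGF-β2 library 2, the median deviation of the 1864 genes over 6000 bp from their group mean was 0.59 lower on the log2 scale than that of the 2312 genes under 2000 bp (log2 difference -0.59), while the other libraries lay between -0.09 and 0.38. In the libraries numbered 3 of Nox4 KO, control and stimulated, several members deviated from the other libraries of their group, as given beside each gene.

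In WT control cells the receptor Pdgfrb was the most abundant member, at 167 ± 7.43 RPKM (mean ± SD, n = 3), a level above that of 97.8% of the genes tested. Pdgfra followed at 39.9 ± 9.06 RPKM, then Pdgfd at 22.5 ± 3.55 and Pdgfrl at 21.5 ± 6.34, whose ranges overlapped. Pdgfa was at 12.5 ± 1.19 and Pdgfc at 10.5 ± 0.54 RPKM, again with overlapping ranges, and Pdgfb was lowest at 0.37 ± 0.13. Nox4 KO control cells had the same order of means, with Pdgfrb at 133 ± 20.2 RPKM, Pdgfra at 27.7 ± 5.52 and Pdgfb at 0.42 ± 0.17. In that group the ranges of neighbours overlapped from Pdgfra down to Pdgfa. After TGF-β2 the order was different. Pdgfrb was still first, at 139 ± 11.8 RPKM in WT and 130 ± 2.92 in Nox4 KO, but Pdgfc came next, at 43.6 ± 2.29 and 36.0 ± 7.61 RPKM, and Pdgfra was last, at 3.79 ± 0.92 and 3.31 ± 0.44. The ranges of Pdgfb and Pdgfra overlapped in Nox4 KO TGF-β2 and not in WT TGF-β2.

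**Figure D1:**
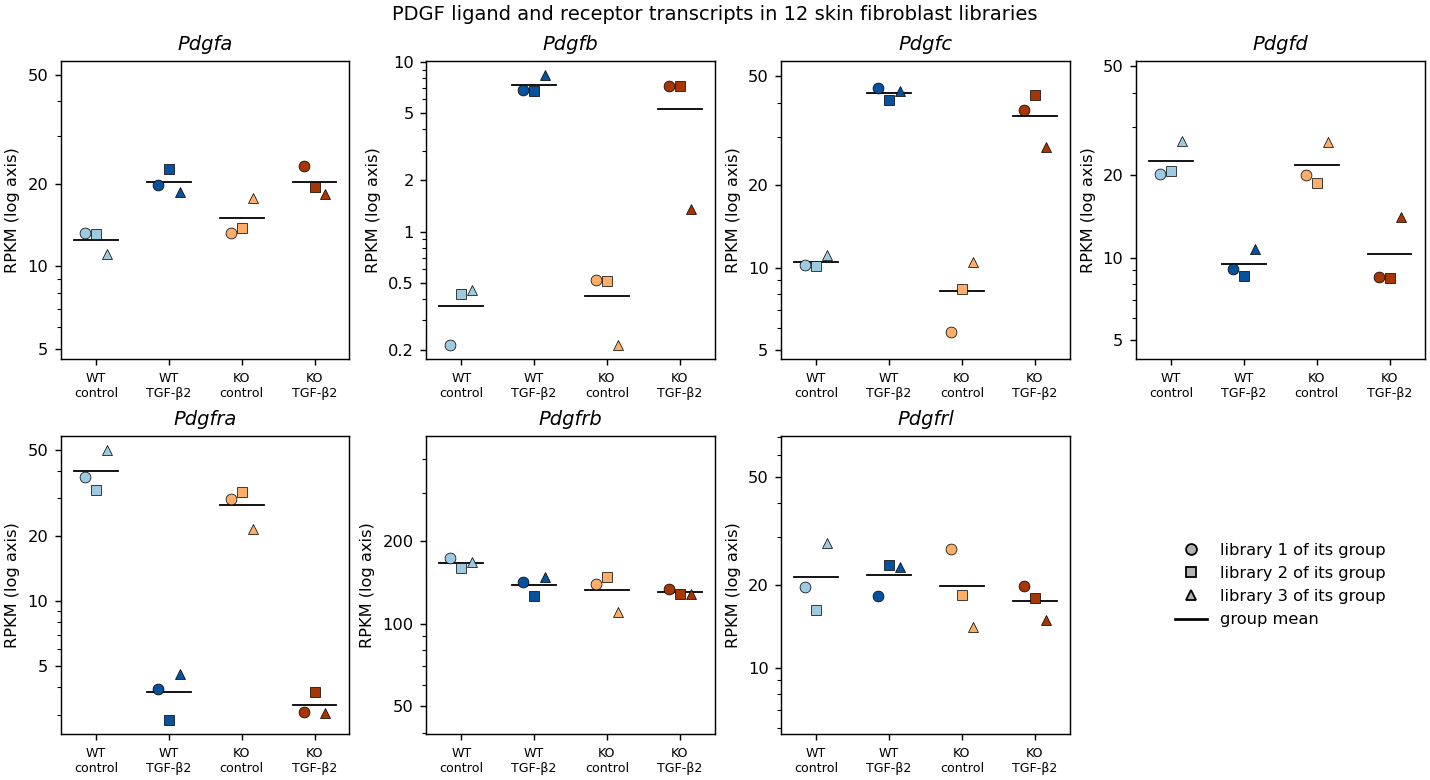
Level of each of the 7 members in the 12 libraries, in RPKM on a log axis; each point is a library, its shape gives the library number within the group, and the bar is the mean of 3. Stimulated and control libraries are apart for Pdgfa, Pdgfb, Pdgfc, Pdgfd and Pdgfra in both genotypes, and the triangle of Nox4 KO TGF-β2 for Pdgfb lies at 1.36 RPKM, below the other 2 at 7.20 and 7.21.

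By fold, Pdgfb had the largest rise of the ligands, and Pdgfc had the largest in RPKM. The gene (ENSMUSG00000000489, GRCm38 chr15:79995874-80014977, minus strand, 8 merged exons of 3058 bp in all) encodes the B chain, the only chain that binds every receptor dimer. Its raw counts were 23, 50 and 56 in WT control and 855, 771 and 956 in WT TGF-β2. They were 61, 65 and 24 in Nox4 KO control and 944, 966 and 176 in Nox4 KO TGF-β2. The stimulated libraries lay above all controls in both genotypes, and in Nox4 KO the library numbered 3 was lowest both without and with TGF-β2. In WT the mean went from 0.37 ± 0.13 to 7.31 ± 0.94 RPKM (n = 3 each), a fitted 20.4-fold difference (log2 fold change 4.35, SE 0.26), the fifth largest rise among 10743 genes (rank 5). In Nox4 KO it went from 0.42 ± 0.17 to 5.26 ± 3.37 RPKM, a fitted 13.3-fold difference (log2 fold change 3.73, SE 0.74, rank 10 of 10809 genes). Pdgfb entered this fit only through the stimulated group, since its control mean was under the filter of 1 RPKM. Its change is therefore given as values without a test. Over the 6 fits that lack 1 library the log2 fold change was 3.43 to 4.19, highest without Nox4 KO TGF-β2 library 3. The call was lost without Nox4 KO control library 1, control library 2 or TGF-β2 library 2.

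Endothelial cells, macrophages and platelets are known sources of PDGF-B, and their markers were measured beside it. Of 7 endothelial markers 4 stayed under 1 RPKM in every library, with Pecam1 at most at 0.133, Cdh5 at 0.0946, Tie1 at 0.0634 and Emcn at 0.193 RPKM. The other 3 reached 4.62 (Kdr), 2.30 (Egfl7) and 1.04 RPKM (Tek). In WT, Egfl7 was at 0.69 to 1.25 RPKM in control and 1.36 to 2.30 with TGF-β2. Tek was at 0.79 to 1.04 and 0.14 to 0.28 RPKM there, and the ranges of Kdr overlapped. Summed endothelial markers ranged from 3.42 to 5.61 RPKM in WT control, 3.05 to 4.77 in WT TGF-β2, 4.49 to 6.14 in Nox4 KO control and 3.86 to 4.37 in Nox4 KO TGF-β2. Of 4 platelet and megakaryocyte markers 3 stayed under 1 RPKM, with Pf4 at most at 0.567 and Gp9 at 0.0298 RPKM, and the fourth, Itga2b, fell in both genotypes. The sum of 8 macrophage markers, 6 of which reached 1 RPKM in at least 1 library, ranged from 23.7 to 116 RPKM in WT control, 20.6 to 80.9 in WT TGF-β2, 19.7 to 89.8 in Nox4 KO control and 13.0 to 65.2 in Nox4 KO TGF-β2. In both genotypes the macrophage ranges of control and stimulated libraries overlapped, and no macrophage marker passed the test for TGF-β2. The part of such cells in the Pdgfb levels was not tested.

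Pdgfc, the gene of the C chain, which binds PDGFRα, was higher after TGF-β2 in both genotypes. It lies at chr3:81036416-81214040 on the plus strand (ENSMUSG00000028019, 6 merged exons, 3521 bp). Its levels were 10.3, 10.1 and 11.1 RPKM in WT control and 45.5, 41.1 and 44.2 in WT TGF-β2. They were 5.81, 8.33 and 10.5 RPKM in Nox4 KO control and 37.6, 42.6 and 27.7 in Nox4 KO TGF-β2. The groups were far apart, and the Nox4 KO libraries spread more widely than those of WT. The fitted difference was 4.27-fold in WT (log2 fold change 2.10, SE 0.09). The rise was 4.66-fold in Nox4 KO (2.22, SE 0.26, adjusted p = 0.00407, edgeR quasi-likelihood test). Each Nox4 KO library against the control of its own number gave ratios of 6.46, 5.12 and 2.64.

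Pdgfa, the gene of the A chain, another PDGFRα ligand, rose modestly. It lies at chr5:138976014-138997370 on the minus strand (ENSMUSG00000025856, 10 merged exons, 2942 bp). The libraries had 13.2, 13.1 and 11.1 RPKM in WT control, 19.8, 22.7 and 18.6 in WT TGF-β2, 13.2, 13.8 and 17.8 in Nox4 KO control and 23.2, 19.5 and 18.4 in Nox4 KO TGF-β2. In WT the gap between the groups was wide, whereas in Nox4 KO the highest control library (17.8) came close to the lowest stimulated one (18.4). The log2 fold change was 0.74 (SE 0.12) in WT and 0.54 (SE 0.14, adjusted p = 0.0313) in Nox4 KO. With library-size scaling in place of TMM normalization the Nox4 KO value was 0.45 and did not pass the test (adjusted p = 0.0620). The Nox4 KO call was kept in 2 of the 6 edgeR fits that lack 1 library, with adjusted p up to 0.102. Each Nox4 KO library against the control of its own number gave ratios of 1.76, 1.41 and 1.03. An antisense gene, 6330403L08Rik, overlaps 813 bp or 27.6% of the merged exons of Pdgfa, and since it is not stated whether the counting used the strand, reads of the 2 genes cannot be told apart.

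Pdgfd, the gene of the D chain, which binds PDGFRβ, was the ligand that fell. It lies at chr9:6168584-6378850 on the plus strand (ENSMUSG00000032006, 7 merged exons, 3154 bp). Levels were 20.1, 20.8 and 26.6 RPKM in WT control and 9.09, 8.57 and 10.8 in WT TGF-β2, and 20.0, 18.7 and 26.5 in Nox4 KO control and 8.48, 8.39 and 14.1 in Nox4 KO TGF-β2. In each of the 4 groups the library numbered 3 was the highest, and no stimulated library reached a control library. The difference was 2.30-fold in WT (log2 fold change -1.20, SE 0.14), and Pdgfd fell 1.98-fold in Nox4 KO (log2 fold change -0.99, SE 0.23, adjusted p = 0.0257). This call was lost without any 1 of 5 of the 6 Nox4 KO libraries, with adjusted p from 0.0524 to 0.0944, and was kept without Nox4 KO TGF-β2 library 3.

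The make-up of the ligand transcripts changed with these differences. In WT control Pdgfd made up 48.9 ± 4.42% of the summed ligand RPKM, Pdgfa 27.4 ± 4.22%, Pdgfc 22.9 ± 0.43% and Pdgfb 0.79 ± 0.26%. In WT TGF-β2 Pdgfc made up 54.0 ± 2.02%, Pdgfa 25.3 ± 3.12%, Pdgfd 11.7 ± 1.22% and Pdgfb 9.05 ± 1.03%. Pdgfc was thus the larger part after TGF-β2 in every library, and Pdgfd in every control library. Nox4 KO cells moved the same way, with Pdgfc from 18.0 ± 2.89% to 49.6 ± 4.96%, Pdgfd from 48.0 ± 2.72% to 14.9 ± 6.91%, and Pdgfb from 0.98 ± 0.51% to 6.97 ± 4.12%. In Nox4 KO TGF-β2 library 3 the Pdgfd share was 22.9% and the Pdgfb share 2.22%, against at most 11.1% and at least 9.27% in the other 2. The summed level of the 4 ligands went from 45.8 ± 2.98 to 80.8 ± 1.55 RPKM in WT and from 45.3 ± 8.48 to 71.9 ± 8.99 RPKM in Nox4 KO. Of the difference of 34.9 RPKM in WT, Pdgfc accounted for 33.1, Pdgfa for 7.90 and Pdgfb for 6.95, offset by Pdgfd at -13.0. The ratio of Pdgfc to Pdgfd was 0.47 ± 0.05 in WT control and 4.64 ± 0.46 in WT TGF-β2, and 0.38 ± 0.08 and 3.82 ± 1.65 in Nox4 KO.

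**Figure D2:**
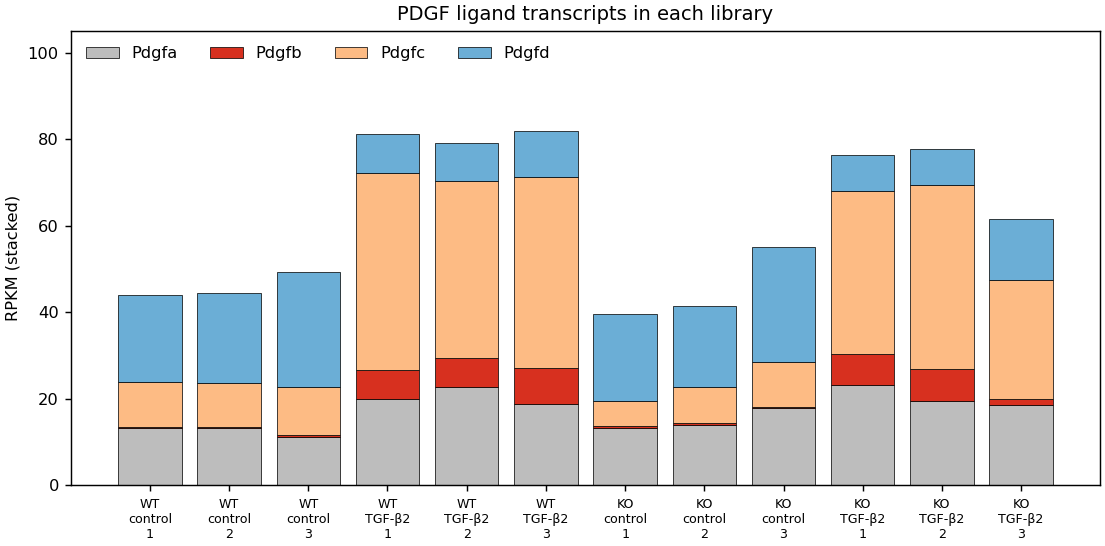
Stacked RPKM of the 4 ligand genes in each library, with the library number within its group under each bar. Control bars sum to 39.6 to 55.1 RPKM and are mostly Pdgfd and Pdgfa, and stimulated bars sum to 61.6 to 82.0 RPKM with Pdgfc as the largest part.

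The bases just before the transcription start are shown for the members that moved by the larger folds and that the RefSeq promoter table (GRCm38.p6) holds with 1 start, namely Pdgfc, Pdgfd and Pdgfra. The table matched 4 of the 7 members, the other being Pdgfa with 2 starts. Each line gives the 250 bases before the start, 5′ to 3′ on the strand of the gene, and the capitals mark the SMAD-binding motif CAGAC or its reverse complement, a motif bound by the transcription factors downstream of TGF-β receptors.
Pdgfc, chr3:81036166-81036415, + strand: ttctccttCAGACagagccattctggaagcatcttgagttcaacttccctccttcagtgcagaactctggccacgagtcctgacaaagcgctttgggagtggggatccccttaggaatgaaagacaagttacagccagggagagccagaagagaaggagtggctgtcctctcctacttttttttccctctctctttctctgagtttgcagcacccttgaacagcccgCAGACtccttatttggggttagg
Pdgfd, chr9:6168236-6168485, + strand: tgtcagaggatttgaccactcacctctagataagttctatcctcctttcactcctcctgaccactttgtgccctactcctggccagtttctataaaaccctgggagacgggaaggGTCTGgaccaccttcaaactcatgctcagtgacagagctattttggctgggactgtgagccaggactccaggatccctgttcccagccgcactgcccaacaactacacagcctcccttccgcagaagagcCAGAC
Pdgfra, chr5:75152001-75152250, + strand: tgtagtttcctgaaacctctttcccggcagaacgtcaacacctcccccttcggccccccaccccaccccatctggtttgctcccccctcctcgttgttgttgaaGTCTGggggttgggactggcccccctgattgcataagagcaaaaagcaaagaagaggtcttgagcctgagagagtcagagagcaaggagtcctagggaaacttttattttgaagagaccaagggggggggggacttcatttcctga
The SMAD-binding motif was found at 242 and 23 bases before the start of Pdgfc, at 135 and 5 bases before that of Pdgfd, and at 146 bases before that of Pdgfra. This short motif was in 42.2% of all 32851 windows of the same length on either strand, so the matches describe these windows and do not set them apart. The TATA box TATAAA was found in the window of Pdgfd, 160 bases before the start, and in 12.4% of all windows. None of these 3 windows held the AP-1 motif TGANTCA (6.75% of all windows) or the SP1 motif GGGCGG (32.7%), whereas the 2 windows of Pdgfa held 1 and 2 SP1 motifs and no SMAD-binding motif.

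Among the receptors, Pdgfra fell strongly. Its gene (ENSMUSG00000029231, chr5:75152292-75198215, plus strand, 27 merged exons of 9516 bp) encodes PDGFRα, the receptor for the A and C chains. WT control libraries had 37.2, 32.4 and 50.0 RPKM and WT TGF-β2 libraries 3.93, 2.82 and 4.64. Nox4 KO control libraries had 29.6, 32.0 and 21.5 RPKM and Nox4 KO TGF-β2 libraries 3.07, 3.82 and 3.06. Every stimulated library was several times below every control library. The difference was 10.2-fold in WT (log2 fold change -3.35, SE 0.24), and Pdgfra fell 7.89-fold in Nox4 KO (log2 fold change -2.98, SE 0.20, adjusted p = 0.00131). By size of fall it ranked 32 of 10743 genes in WT and 39 of 10809 in Nox4 KO. The lowest WT value, 2.82 RPKM, was that of the library in which long transcripts were low, and without it the WT log2 fold change was -3.16. The antisense genes Gm42802 and Gm42803 overlap 456 and 166 bp of its exons, or 4.79% and 1.74%.

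Pdgfrb (ENSMUSG00000024620, 24 merged exons of 5478 bp), which encodes PDGFRβ, the receptor for the B and D chains, did not pass the test in Nox4 KO. WT control libraries had 174, 160 and 168 RPKM and WT TGF-β2 libraries 143, 126 and 149, so that all stimulated WT libraries lay below the controls, with a log2 fold change of -0.23 (SE 0.11). Nox4 KO control libraries had 140, 149 and 110 RPKM and Nox4 KO TGF-β2 libraries 134, 129 and 129, which lie inside the control range. The log2 fold change in Nox4 KO was 0.06 (SE 0.13, 95% interval -0.26 to 0.37, adjusted p = 0.765). The Pdgfrb to Pdgfra ratio in RPKM was 4.32 ± 0.83 in WT control and 37.7 ± 6.41 in WT TGF-β2, and 4.83 ± 0.26 and 39.8 ± 5.30 in Nox4 KO. The lowest stimulated ratio was 32.1 and the highest control ratio 5.13. Of 7 pericyte markers, genes of another cell type that carries PDGFRβ, Rgs5, Kcnj8, Abcc9 and Higd1b were under 1 RPKM in every library. Cspg4 rose and Notch3 fell with TGF-β2 in both genotypes, Mcam passed the test in Nox4 KO, and the summed list ranged from 58.9 to 92.2 RPKM in control and from 125 to 161 RPKM in stimulated libraries over both genotypes. In bulk RNA, fewer cells of a type and less RNA per cell cannot be told apart.

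Pdgfrl did not change measurably with TGF-β2. The gene (ENSMUSG00000031595, chr8:40926212-40990785, plus strand, 6 merged exons of 1548 bp) had 19.8, 16.2 and 28.5 RPKM in WT control, 18.2, 23.8 and 23.4 in WT TGF-β2, 27.1, 18.5 and 14.1 in Nox4 KO control and 19.9, 18.0 and 14.9 in Nox4 KO TGF-β2. All 4 ranges overlapped, and the spread between libraries of a group was wider than any difference of means. The log2 fold change was 0.06 (SE 0.20) in WT and -0.10 (SE 0.26, 95% interval -0.72 to 0.52, adjusted p = 0.798) in Nox4 KO. The highest control values, 28.5 and 27.1 RPKM, came from the libraries with the highest macrophage sums, 116 and 89.8 RPKM, and the part of macrophages in them was not tested.

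Counted over the family in WT, the stimulated libraries lay wholly above the controls for 3 members and wholly below for 3. Of the 10743 genes in the WT fit 45.2% had groups of 3 without overlap, and as the family was selected with this contrast known, nothing is read from the count. In Nox4 KO 5 members were called at an adjusted p-value under 0.05, Pdgfa, Pdgfb and Pdgfc higher and Pdgfd and Pdgfra lower. Pdgfb is in this and the following counts only because its stimulated group passed the filter, so its call is not read as a test. Of 10809 genes tested there, 15.2% were called higher and 15.0% lower, and the groups did not overlap in 48.5%. The median log2 fold change in Nox4 KO was 0.06 over the 7 members and -0.01 over all genes tested. With library-size scaling 1044 of all genes were higher and 2135 lower in Nox4 KO, and with upper-quartile normalization 1217 and 1978, in place of 1644 and 1626. The calls of Pdgfc and Pdgfra held with each library left out. Without Nox4 KO control library 1 or 2, or without Nox4 KO TGF-β2 library 2, only these 2 members were called. Without Nox4 KO TGF-β2 library 1 there were 3 calls and without Nox4 KO control library 3 there were 4. With both Nox4 KO libraries numbered 3 left out, a choice made after their values were seen, all 5 were called. At a fold change of at least 2 there were 3 calls in Nox4 KO, without Pdgfa and Pdgfd.

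**Figure D3:**
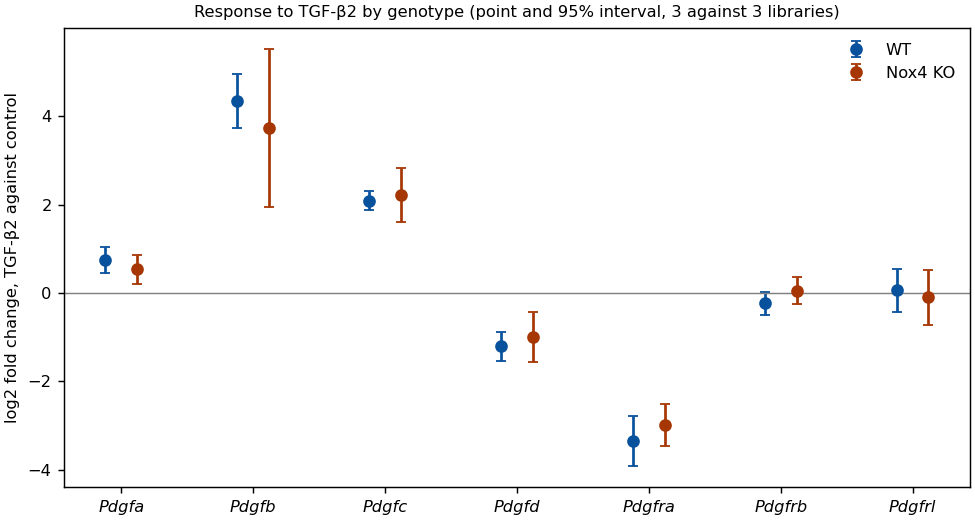
Log2 fold change of each member between stimulated and control libraries, for WT and Nox4 KO, with 95% intervals from 3 against 3 libraries; the horizontal line marks no difference. The intervals of Pdgfa, Pdgfc, Pdgfd and Pdgfra in Nox4 KO exclude 0. That of Pdgfb, which passed the filter only through the stimulated group, is the widest, from 1.95 to 5.52.

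Between genotypes no member was called by edgeR, as was no gene at all. In control cells 6 of the 7 members passed the filter of 1 RPKM, Pdgfb being under it in both groups. Adjusted calls were 0% of the 10767 genes tested, 5.54% had an unadjusted p-value under 0.05, and the groups did not overlap in 13.6%. The WT control libraries are part of the response on which the family was selected. Members selected for a WT fall lean towards high WT control values, so the member differences are values and not tests. For Pdgfra and Pdgfrb the Nox4 KO libraries all lay below the WT libraries, and nothing is read from this. The log2 difference of Nox4 KO minus WT was -0.56 for Pdgfra (SE 0.20) and -0.37 for Pdgfrb (SE 0.13). The other 4 overlapped, with log2 differences from -0.40 for Pdgfc to 0.22 for Pdgfa. By DESeq2 no member was called either, and 28 genes were called in all.

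After TGF-β2 all 7 members passed the filter and their WT and Nox4 KO libraries overlapped. Adjusted calls were 0% of 10439 genes in edgeR, with 3.22% at an unadjusted p-value under 0.05 and 10.1% without overlap. The WT stimulated libraries are also part of the response on which the family was selected, so the member differences are values and not tests. DESeq2 called 16 genes and no member. The log2 differences of Nox4 KO minus WT were between -0.45 for Pdgfb (95% interval -1.77 to 0.86) and 0.14 for Pdgfd (-0.40 to 0.68). For Pdgfb this was 0.0034 without Nox4 KO TGF-β2 library 3. For Pdgfc the difference was -0.26 (95% interval -0.66 to 0.15) and for Pdgfra -0.18 (-0.69 to 0.32).

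The difference between the 2 responses to TGF-β2 was fitted over all 12 libraries as the interaction of genotype and stimulation. It contains the WT response on which the family was selected, and members selected for large WT changes lean towards a smaller response in Nox4 KO, so it is given for the members as values with intervals and no test. Adjusted calls were 0% of 10890 genes in edgeR, 2.66% had an unadjusted p-value under 0.05, and DESeq2 called 6 genes. The response of Nox4 KO minus that of WT was -0.60 on the log2 scale for Pdgfb (95% interval -2.44 to 1.24), 0.14 for Pdgfc (-0.47 to 0.75), -0.19 for Pdgfa (-0.61 to 0.22), 0.23 for Pdgfd (-0.42 to 0.88), 0.38 for Pdgfra (-0.32 to 1.08), 0.30 for Pdgfrb (-0.09 to 0.68) and -0.14 for Pdgfrl (-0.91 to 0.63). These intervals leave room for a difference between genotypes in either direction, widest for Pdgfb.

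**Figure D4:**
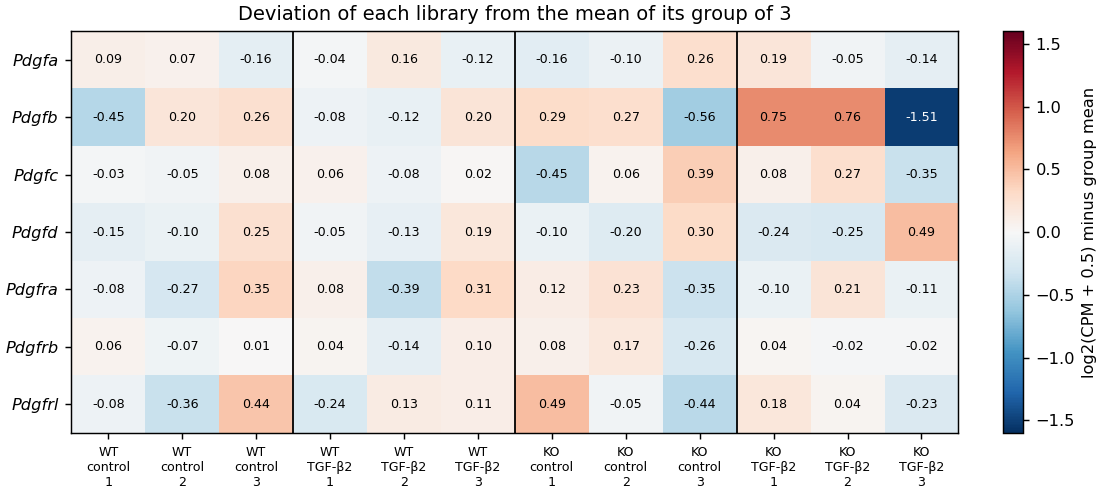
Deviation of each library from the mean of its group of 3 for each member, in log2(CPM + 0.5), where CPM is the count scaled to the total of the library; red is above and blue below the mean. The largest cell is Pdgfb in Nox4 KO TGF-β2 library 3 at -1.51, and in that library Pdgfd is at 0.49.

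Within groups the members deviated by library in different ways, as the map of deviations shows. In Nox4 KO TGF-β2 library 3, Pdgfb was at -1.51 and Pdgfc at -0.35 on the log2 scale while Pdgfd was at 0.49. In Nox4 KO control library 3, Pdgfb was at -0.56, Pdgfrl at -0.44, Pdgfra at -0.35 and Pdgfrb at -0.26, while Pdgfc was at 0.39, Pdgfd at 0.30 and Pdgfa at 0.26. In WT the widest deviation of the ligands was that of Pdgfb in control library 1, at -0.45 with 23 reads. Over the 12 libraries, after taking out group means, Pearson r was -0.71 between Pdgfb and Pdgfd, -0.80 between Pdgfa and Pdgfra and 0.75 between Pdgfra and Pdgfrb, the widest 3 of 21 pairs. These are descriptions over libraries that share group means and, in Nox4 KO, cultures that deviated together by number.

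The genes with the pattern most like each member were sought over the 12 libraries in log2(CPM + 0.5), by Pearson r and with no test, since all points share the split into control and stimulated cells. For Pdgfb they were Il11, a cytokine of the interleukin-6 family (r = 0.985), the phosphate transporter Slc20a1 (0.984) and Ppm1j (0.983), and 343 of 10890 genes had r over 0.9. Those most like Pdgfc were Mllt11 (0.990), Golph3 (0.985) and Rph3a (0.983). For Pdgfa they were Zc3h14 (0.960) and Nudt5 (0.950). Pdgfd was most like Capn5 (0.995), Ablim1 (0.993) and Zfr2 (0.993), among 824 genes with r over 0.9. Pdgfra was most like the prostacyclin receptor Ptgir (0.995), the TGF-β co-receptor Tgfbr3 (0.986) and Irak3 (0.986), among 623. The 2 members without a call had few companions, namely Gcnt4 (0.903) and Tshz3 (0.865) for Pdgfrb, and the macrophage genes Cd14 (0.906), C1qb (0.863) and Folr2 (0.859) for Pdgfrl. By deviations from the group means the nearest genes were Star for Pdgfb (0.959), Ablim1 for Pdgfd (0.984), Bicc1 for Pdgfra (0.972), Runx1 for Pdgfrb (0.943), Larp6 for Pdgfrl (0.962), Tnfrsf23 for Pdgfc (0.941) and Ehd3 for Pdgfa (0.890).

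The other genes of the pathway were counted in 5 lists of 75 genes, 71 of which were tested for TGF-β2 in each genotype. In Nox4 KO 15 were called higher and 14 lower, or 29 of 71, beside 15.2% and 15.0% of all genes. In WT 14 were higher and 14 lower, beside 10.6% and 12.3% of all genes. The genes called in both genotypes numbered 20 of the 71, all in the same direction. Over all genes they numbered 1751, with 10743 tested in WT and 10809 in Nox4 KO, and their directions were not counted. In Nox4 KO the libraries of one number deviated together. With the number as a replicate block 48 of the 71 were called, beside 5832 of all 10809 genes. Without Nox4 KO TGF-β2 library 2 or Nox4 KO control library 2 there were 16 and 19, beside 1157 of 10816 and 1801 of 10838 genes. At a fold change of at least 2 there were 9 in Nox4 KO and 13 in WT, beside 737 of 10809 and 832 of 10743 genes. Between genotypes none was called by edgeR or DESeq2 in either condition. At an unadjusted p-value under 0.05 edgeR gave 2 of 70 in control cells, 1 of 71 after TGF-β2 and 1 of 71 in the interaction. The shares of all genes were 5.54%, 3.22% and 2.66%, and nothing particular to the lists is read from these counts. Named after their values were seen, these genes were Slc9a3r1 (log2 difference 0.58) and Cblb (-0.30) in control, Junb (-0.38) after TGF-β2 and Plcg1 (0.29) in the interaction.

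Of the 10 genes of ligand processing and binding, 8 were tested. In Nox4 KO 1 rose and 2 fell (15.2% and 15.0% of all genes), and in WT 2 were higher and 3 lower (10.6% and 12.3%). Furin, a convertase of precursor proteins, rose from 40.6 to 45.7 RPKM in Nox4 KO control to 68.6 to 74.9 RPKM with TGF-β2 (log2 fold change 0.80, SE 0.08, adjusted p = 0.00273), with 0.71 (SE 0.10) in WT. The plasminogen activator Plau, which can cleave the D chain, fell with a log2 fold change of -1.92 in Nox4 KO (SE 0.12, adjusted p = 0.00121) and was at -2.03 (SE 0.31) in WT. Plat, tissue plasminogen activator, which can cleave the C chain, fell with -0.89 in Nox4 KO (SE 0.18, adjusted p = 0.0175) and was at -0.95 (SE 0.27) in WT.

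The 12 genes of receptor partners and turnover gave 2 rises and 1 fall in Nox4 KO and 1 lower call in WT, with 0 genes in common. With 12 genes these counts can be set beside 15.2% higher and 15.0% lower of all genes in Nox4 KO and 12.3% lower in WT, and nothing particular to the list is read from them. Named after their values were seen, they were Cbl, a ubiquitin ligase of active receptors (0.61, SE 0.10, adjusted p = 0.0103), Rasa1, a GTPase activator of RAS (0.49, SE 0.11, adjusted p = 0.0195), and Slc9a3r1, a scaffold that binds PDGFRβ (-1.19, SE 0.13, adjusted p = 0.00378), in Nox4 KO. Nrp1, a co-receptor, was the 1 called in WT (-0.98, SE 0.24). A call in 1 genotype does not show a difference between them, and the interaction called no gene at all by edgeR. For Nrp1 the value in Nox4 KO was -0.21 (SE 0.24). Its response in Nox4 KO minus that in WT was 0.78 (SE 0.37). Nrp1 was named because it was called in WT and not in Nox4 KO, so this difference is a value and not a test.

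Receptor signalling was the largest list, with 32 genes tested, 9 higher and 6 lower in Nox4 KO (15.2% and 15.0% of all genes) and 5 and 5 in WT (10.6% and 12.3%). Its median log2 fold change was 0.07 in Nox4 KO and -0.01 in WT. Pik3r1, a regulatory subunit of PI3 kinase, fell in Nox4 KO (log2 fold change -1.20, SE 0.19, adjusted p = 0.00785) and was at -1.39 (SE 0.20) in WT. The catalytic subunit Pik3cb rose in Nox4 KO (0.92, SE 0.12, adjusted p = 0.00524) and was at 0.95 (SE 0.20) in WT. Stat5a fell in Nox4 KO (-0.64, SE 0.11, adjusted p = 0.0101) and the SRC family kinase Fyn rose (0.65, SE 0.11, adjusted p = 0.00915), with -0.80 (SE 0.13) and 0.68 (SE 0.16) in WT.

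Immediate early genes, which growth factor receptors switch on within minutes, were split in direction. Of 15 genes 3 rose and 3 fell in Nox4 KO (15.2% and 15.0% of all genes), and 7 were higher and 3 lower in WT (10.6% and 12.3%). Fos fell in Nox4 KO (log2 fold change -1.93, SE 0.21, adjusted p = 0.00382), as did Nr4a1 (-1.61, SE 0.36, adjusted p = 0.0222). Fosb, which passed the filter only through the stimulated group, was at 1.64 (SE 0.47). The chemokine gene Cxcl1, which passed only through the control group, was at -3.56 (SE 0.50). Both are in the Nox4 KO counts, but their changes are given as values without a test. The WT values were -1.48 (SE 0.26) for Fos, -1.32 (SE 0.18) for Nr4a1, 1.50 (SE 0.26) for Fosb and -3.14 (SE 0.43) for Cxcl1. Among the other class III receptors and their ligands, 4 of 6 genes were tested. Of these, 2 fell in Nox4 KO and were lower in WT, beside 15.0% and 12.3% of all genes called lower. They were Kitl, the KIT ligand (-1.74, SE 0.34, adjusted p = 0.0155 in Nox4 KO), and Flt3l, the FLT3 ligand (-1.15, SE 0.15, adjusted p = 0.00542), with WT values of -2.23 (SE 0.40) and -1.13 (SE 0.19). In WT Kitl passed the filter only through the control group.

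**Figure D5:**
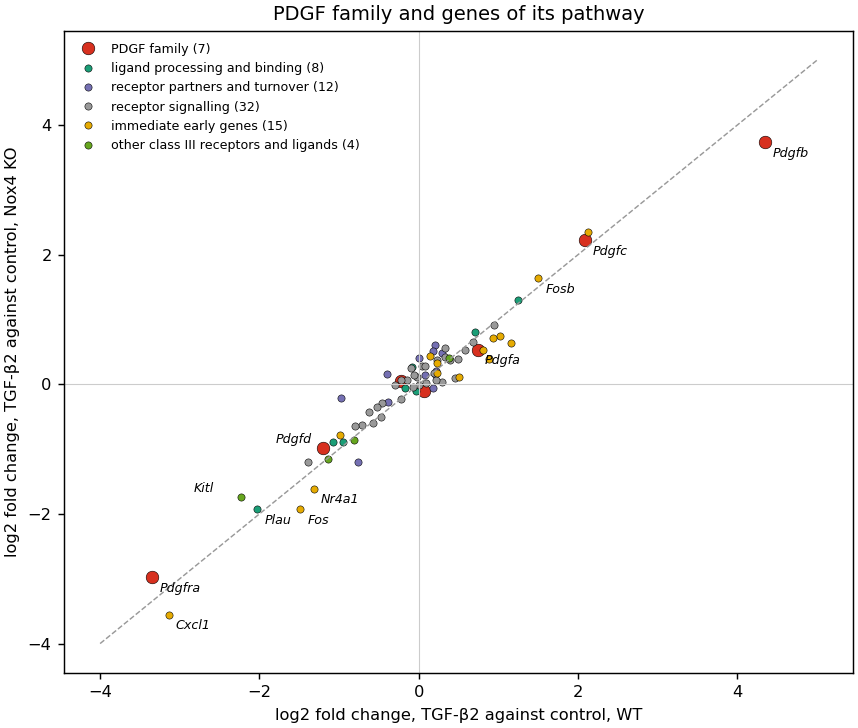
Log2 fold change with TGF-β2 in WT (horizontal) and in Nox4 KO (vertical) for 78 genes of the family and its 5 pathway lists; each point is a gene and the dashed line marks equal values. Pdgfb lies farthest to the upper right at 4.35 and 3.73, and Pdgfra and Cxcl1 farthest to the lower left.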

How the data were processed

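RNA of 12 libraries was analysed. The authors aligned short single-end reads against GRCm38 using STAR and dropped those mapping to more than 1 place. Reads overlapping the merged exons of each protein-coding isoform set were then totalled by featureCounts. The deposited table holds these counts without scaling. The submitters' processing notes name CASAVA 1.8.2, STAR 2.4 and featureCounts 1.4.6. Whether counting used the strand is not given in the sources used here.

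Groups came from the labels. RPKM was computed from the counts, each library's total and merged exon lengths of the GRCm38 annotation. Genes with a mean of at least 1 RPKM in a compared group were tested with edgeR 4.0.16 (R 4.3.3), TMM normalization and the quasi-likelihood test, each comparison on its own 6 libraries and the interaction on all 12. Library sizes were recomputed over the genes kept. A call is a Benjamini-Hochberg adjusted p-value under 0.05. SEs came from the F statistic. The test was checked on simulated counts. DESeq2 1.42.0, other normalizations and filters, a replicate block and leaving out each library were alternatives, and library-size scaling, total counts as library sizes, the legacy test and leaving out both Nox4 KO libraries numbered 3 were added after seeing the data.

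The members, gene lists and motifs were chosen with earlier results of these data known. Text names all members, in each list up to 4 genes called in both genotypes with the largest mean absolute log2 fold change, the most alike genes and Nox4. Some genes that this rule or the marker lists include are not reported here. Replicates differed by more than sampling noise. Same-numbered libraries share only a number in the labels. Their deviations from group means correlated at 0.763, 0.688 and 0.741 in Nox4 KO, which pairs them, and at 0.0619, 0.415 and 0.525 in WT, which does not by the limit of 0.1 for every pair. Neither labels nor paper state a pairing.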

Additional observations from a re-analysis of the deposited data

How the results depend on the processing

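The direction of Pdgfa, Pdgfb, Pdgfc, Pdgfd and Pdgfra with TGF-β2 in Nox4 KO was the same under every alternative run. The count of members called there was 3 at a fold change of at least 2 and 2 to 5 with each library left out. Pathway genes called at that fold change were 13 in WT and 9 in Nox4 KO, and without 1 library 22 to 36 and 16 to 38. With the replicate block they were 48 in Nox4 KO, and all genes called there were 5832 in place of 3270, so the blocked count is the larger by over 1.5 times. The block changed no call of a member in any comparison. With it the log2 fold change of Pdgfb in Nox4 KO was 3.69. In WT and between genotypes the numbers do not pair the libraries by the limit used.

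Over all genes, a fold change of at least 2 left 832 calls in WT and 737 in Nox4 KO, and leaving out 1 library gave 1289 to 3406 and 1157 to 3513, in place of 2463 and 3270. Between genotypes 1 gene was called in control with all 12 libraries in the fit and without Nox4 KO control library 2, and 1 after TGF-β2 without Nox4 KO TGF-β2 library 1.

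Signs turned only for values without a call. Over the fits that lack 1 library, the response to TGF-β2 (log2) was -0.079 to 0.31 for Pdgfrl in WT, -0.30 to 0.20 for Pdgfrl in Nox4 KO and -0.072 to 0.16 for Pdgfrb in Nox4 KO. Pdgfrb there was at -0.051 without both libraries numbered 3, -0.028 under library-size scaling and -0.0063 under upper-quartile normalization. In control the difference between genotypes was -0.24 to 0.024 for Pdgfd and -0.43 to 0.088 for Pdgfrl. After TGF-β2 it was -0.081 to 0.099 for Pdgfa, -0.75 to 0.0034 for Pdgfb and -0.14 to 0.27 for Pdgfd. In the interaction the ranges were -0.39 to 0.15 for Pdgfrl, -0.055 to 0.32 for Pdgfc and -0.057 to 0.36 for Pdgfd. The causes were not tested. With 3 libraries a group, an interval that includes 0 does not show that there was no difference, and Pdgfb in control rests on 23 to 65 reads.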
